A study of Mus musculus with 4 samples.

Results

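The replication-dependent histone genes were examined in RNA-seq counts from mouse primary T cells. They were taken as every protein-coding gene of the count table whose symbol begins with Hist1h, Hist2h, Hist3h or Hist4h, which gave 67 of 54532 genes. The rule reads the biotype and the symbol and uses no measured value. The symbols place 6 of them in class H1, 18 in H2A, 18 in H2B, 12 in H3 and 13 in H4. The cells, lymphocytes taken from animals and not a cell line, were cultured with serum, IL2 and CD3/CD28 beads, a stimulus that makes T cells divide. Libraries labelled PTC (n = 2) and Control (n = 2) were both collected at 12 h. The labels do not expand PTC, give no dose, strain or age, and do not state whether replicates were separate cultures or animals. The p-values may therefore reflect technical spread alone. The comparison asked which transcripts differed with PTC. The title of the series names BMI1, a Polycomb protein.

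Replication-dependent histone genes supply the proteins that package newly made DNA. H2A, H2B, H3 and H4 form the core of the nucleosome and H1 binds the DNA between nucleosomes. Dividing cells express these genes mainly in S phase, from many clustered, mostly intronless copies. Most of their mRNAs end in a short RNA stem-loop and not in a poly(A) tail. The stem-loop-binding protein SLBP holds that structure, the U7 snRNP directs cleavage just after it, and the mRNA is degraded when DNA synthesis stops. Replacement histones such as H2A.Z and H3.3 are made throughout the cell cycle, from polyadenylated mRNAs in most cases.

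The 3′ stem-loop is the feature that sets this family apart from other mRNAs, so it was looked for in the annotated transcripts. It was searched by its structure, a perfect inverted repeat of 6 bases that begins GG and ends T, around a loop of 4 bases that begins TT. It was found after the stop codon in 44 of the 67 genes, 21 to 58 bases from the stop codon, in 6 distinct forms. Only 69 of 21901 protein-coding genes (0.315%) held it anywhere in their transcripts, and 25 of those lay outside the family, among them the replacement histone gene H2afx. The sites below, an example of each form plus a further example of the most common form, come from the most abundant member of 4 classes and from 3 members that show the remaining forms. They are the GENCODE M21 transcript strand on GRCm38, written as DNA, with the stem-loop in capitals.
Hist1h1c: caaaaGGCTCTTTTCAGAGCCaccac
Hist1h2bj: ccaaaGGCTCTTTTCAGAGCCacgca
Hist1h3c: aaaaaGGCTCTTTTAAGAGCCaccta
Hist2h2ac: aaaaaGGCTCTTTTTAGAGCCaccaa
Hist1h4i: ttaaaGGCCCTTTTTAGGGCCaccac
Hist1h4c: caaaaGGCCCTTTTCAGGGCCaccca
Hist1h4j: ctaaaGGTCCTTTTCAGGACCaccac
These sites lie at chr13:23739507-23739532 on the plus strand (Hist1h1c), chr13:22043633-22043658 on the plus strand (Hist1h2bj), chr13:23745042-23745067 on the minus strand (Hist1h3c), chr3:96220413-96220438 on the minus strand (Hist2h2ac), chr13:22040961-22040986 on the minus strand (Hist1h4i), chr13:23698084-23698109 on the minus strand (Hist1h4c) and chr13:21735432-21735457 on the plus strand (Hist1h4j). The stem followed the histone class. All 33 stem-loops found in H1, H2A, H2B and H3 genes had the arm GGCTCT, whereas the 11 in H4 genes had GGCCCT (9 genes) or GGTCCT (2 genes). The loop was TTTC in 35 genes, TTTA in 6 and TTTT in 3.

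The family was expressed at a low level in all 4 libraries. Its summed counts were 994 and 1271 in PTC libraries 1 and 2, against 1112 and 1150 in Control libraries 1 and 2, out of 15458818 to 16639911 counts per library. Set against the library totals, that is 64.0 and 76.4 counts per 1000000 (CPM) in PTC and 70.8 and 74.4 CPM in Control. At least 1 count was seen for 52 and 52 members in the PTC libraries and for 47 and 46 in the Control libraries. A count of 0 allows a level of up to 0.195 and 0.184 CPM in PTC and 0.191 and 0.188 CPM in Control, at 3 counts and for counting error only. The labels do not say whether RNA was selected by its poly(A) tail. Of 7 other RNAs whose mature form lacks such a tail, picked after the values were seen, Malat1 had 46.8 and 57.0 CPM in PTC against 48.0 and 49.8 CPM in Control. Rn7sk had 1.75 and 4.29 CPM in PTC against 2.87 and 2.57 CPM in Control, and Terc had 0 and 6 counts in PTC against 4 and 5 in Control. Rmrp, Rpph1, Rny1 and Rny3 had no count in any library. The part of RNA selection in the histone levels was not tested.

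Across the 4 libraries 56 of the 67 members had a count, 40 had one in every library, and 11 had none. The 11 without a count were Hist2h2ab, Hist2h3c1, Hist2h3b, Hist1h2ah, Hist1h2an, Hist2h2aa1, Hist2h2bb, Hist2h2aa2, Hist1h1t, Hist1h2ba and Hist1h2aa. The last 3 encode the testis H1t, TH2B and TH2A, made in germ cells. A further 8 members had 1 to 3 counts over all libraries. The counts were concentrated in few genes: Hist1h4i with 929 and Hist1h1c with 839 held 39.1% of the 4527 counts of the family, and the top 5 held 59.3%. Only 9 members reached 100 counts over the 4 libraries.

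The count table names nearby genes that differed widely in level. The Hist1 genes lie in 2 groups on chromosome 13 (23 genes within chr13:21715763-22043676 and 31 within chr13:23531050-23934851), which held 36.6% and 45.9% of the counts. Of the 10 Hist2 genes, within chr3:96219865-96270132, only 4 had a count, and Hist2h2be took 455 of their 522 counts. The 2 Hist3 genes held 5.90% of the counts and the lone Hist4 gene, of class H4, had 4 counts.

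Levels can be compared between genes only per length, here as CPM per kb of the deposited gene length, averaged over the 4 libraries. The highest was Hist1h4i with 20.2 CPM per kb, followed by the linker histone gene Hist1h1c (histone H1.2) with 8.47, Hist1h2bj with 7.37, Hist1h3c with 6.12, Hist3h2ba with 5.53 and Hist1h2ao with 4.99. Only 18 members exceeded 1 CPM per kb, and the median member had 0.348. By share of counts, not divided by length, a single gene led H4, where Hist1h4i held 79.1% of the class counts. The same was true of H1, where Hist1h1c held 87.6%. H2A and H2B counts were spread more widely, with 32.4% of H2A counts in Hist1h2ao and 34.0% of H2B counts in Hist2h2be. Per kb Hist2h2be, with its 2620-base model, had 2.75, below Hist1h2bj and Hist3h2ba. Hist1h3c held 41.6% of H3 counts.

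The annotated 3′ ends of the members differed, and so did the share of counts they held. In 22 members the gene model runs more than 100 bases past the stem-loop, up to 4884 bases in Hist1h1d, and these held 58.6% of the counts. Most of these 2655 counts came from Hist1h4i, with 929, and Hist1h1c, with 839. In another 22 the gene model ends within 100 bases of the stem-loop, and these held 19.5%, or 883 counts. The stem-loop was not found in 23 models. Of these, 15 end within 2 bases of the stop codon, so that the sequence past it is not in the model, and held 5.30% of the counts. The other 8 held 16.5%, mostly from Hist2h2be. The poly(A) signal word AATAAA stood after the stem-loop in 13 members, all with the longer models, and Hist1h1c, Hist2h4, Hist3h2ba and Hist1h2ae were among them. So were Hist1h1t and Hist2h3c1, which had no count, whereas Hist1h4i, the most abundant member, was not. Per length the medians of the 4 kinds of model were similar. They were 0.361 CPM per kb for the longer models and 0.422 for those ending near the stem-loop. The other models, where it was not found, had 0.335, and those ending at the stop codon had 0.332. The length that divides the counts includes the sequence past the stem-loop, so this comparison is tied to the grouping. Enough counts for the test below were held by 12 of the 22 longer models, against 6 of 22, 3 of 8 and 2 of 15.

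Near-identical copies and overlapping gene models limit what a count can be assigned to. Of the 50-base words of each member's longest transcript, over 50% were also found in other genes for 34 of the 67 members, and at least 80% for 19. These 19 held 7.78% of the counts and included 7 of the 11 members without a count. All 5 members whose words were entirely shared had no count. Genes outside the family, overlapping ones included, count as sharing here. With other members alone their share was 0% in Hist2h2bb, 34.7% in Hist2h3c1, 79.7% in Hist2h3b, 89.2% in Hist2h2aa1 and 100% in Hist2h2aa2. How reads that fit several places were counted is not given in the sources used here, so the levels of such members are uncertain. Among the 9 members with at least 100 counts, the share found in any other gene was highest in Hist1h2ao, at 93.5%. Its coding sequence is identical to that of another member. The share was lowest in Hist2h2be (0.0%), Hist1h1c (8.54%), Hist3h2ba (22.1%) and Hist1h4i (28.9%). In Hist1h3h, with 80 counts, it was 93.9%. In addition 24 members overlap another annotated gene, 7 of them on the same strand. Hist1h2be overlaps Hist1h1e, so the counts of these genes are uncertain as well.

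Many H2A and H2B genes start back to back. There were 12 such pairs, 176 to 306 bases apart, and 11 had a count. Per kb the H2B gene was the higher partner in 6 pairs and the H2A gene in 5, a tally that includes pairs at a few counts (Hist1h2ap with 3 beside Hist1h2br with 2, and Hist1h2an with 0 beside Hist1h2bp with 3). Hist1h2bj had 7.37 CPM per kb beside 0.653 for Hist1h2ag, of whose words 59.4% and 78.9% are shared with other genes. Hist1h2bc had 2.72 beside 0.0451 for Hist1h2ac, with 30.6% and 14.1% shared. The reverse order was seen for Hist1h2ao, with 4.99 CPM per kb beside 0.0786 for Hist1h2bq, although 93.5% and 97.2% of their words are shared with other genes.

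The region between the starts of Hist1h2ag (minus strand) and Hist1h2bj (plus strand) is shown because a single stretch of DNA lies upstream of partners that differed this much. It is RefSeq sequence of GRCm38.p6 at chr13:22042950-22043197 on the plus strand, with CCAAT on either strand in capitals, 5 matches in 248 bases.
Hist1h2ag and Hist1h2bj: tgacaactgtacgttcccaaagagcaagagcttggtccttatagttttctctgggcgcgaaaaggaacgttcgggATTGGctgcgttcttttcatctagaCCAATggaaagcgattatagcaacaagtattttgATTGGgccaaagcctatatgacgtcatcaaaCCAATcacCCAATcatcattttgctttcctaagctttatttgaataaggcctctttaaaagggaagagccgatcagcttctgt
Promoters (250 bases before to 50 after the start) were found in the RefSeq table for 62 members, and 4 motifs were counted on both strands. The motifs differed by class. CCAAT was in all 6 H1, 18 H2A, 16 H2B and 10 H3 promoters but in 3 of 12 H4 promoters, against 37.8% of all 27025 promoters. The octamer ATTTGCAT, the binding sequence of Oct1, was in 7 H2A and 6 H2B promoters and in none of the others, against 1.74% of all promoters. The H1 box AAACACA was in 5 of 6 H1 promoters and 4 others, against 7.25%. TATAAA was in 35 members (56.5%), against 14.1% of all promoters. Promoters of the H2A and H2B genes that start back to back overlap, so the same match can be counted for both partners. No motif contains another of these, and a match describes the letters alone.

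Set beside each other, PTC and Control libraries gave summed histone levels that differed by less than the spread between replicates. TMM-scaled CPM, counts scaled to a library size adjusted by the trimmed mean of M values, summed to 64.6 and 77.9 in PTC against 71.0 and 72.2 in Control, or 71.2 ± 9.40 and 71.6 ± 0.876 (SD, n = 2 each). The PTC libraries lie on either side of both Control libraries, and the log2 ratio of the means was -0.01.

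By class, the linker histones H1 summed to 11.6 and 16.9 CPM in PTC against 15.4 and 16.4 CPM in Control, with a log2 ratio of -0.16. H2A summed to 6.50 and 8.33 CPM in PTC against 7.59 and 7.16 CPM in Control, with a log2 ratio of 0.01. H3 summed to 8.25 and 10.7 CPM in PTC against 7.15 and 11.0 CPM in Control, with a log2 ratio of 0.07. In these 3 classes the groups overlapped. H4 summed to 16.05 and 20.6 CPM in PTC against 20.04 and 17.4 CPM in Control, a log2 ratio of -0.03, and the groups overlapped here too. H2B summed to 22.2 and 21.3 CPM in PTC against 20.8 and 20.2 CPM in Control. H2B was the class in which both PTC libraries lay above both Control libraries, by 0.08 on the log2 scale. With library totals in place of TMM scaling it was 0.04. The H2B counts were close, at 341 and 348 in PTC against 326 and 322 in Control, and counting error was not weighed. No test was made on sums over members.

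**Figure D1:**
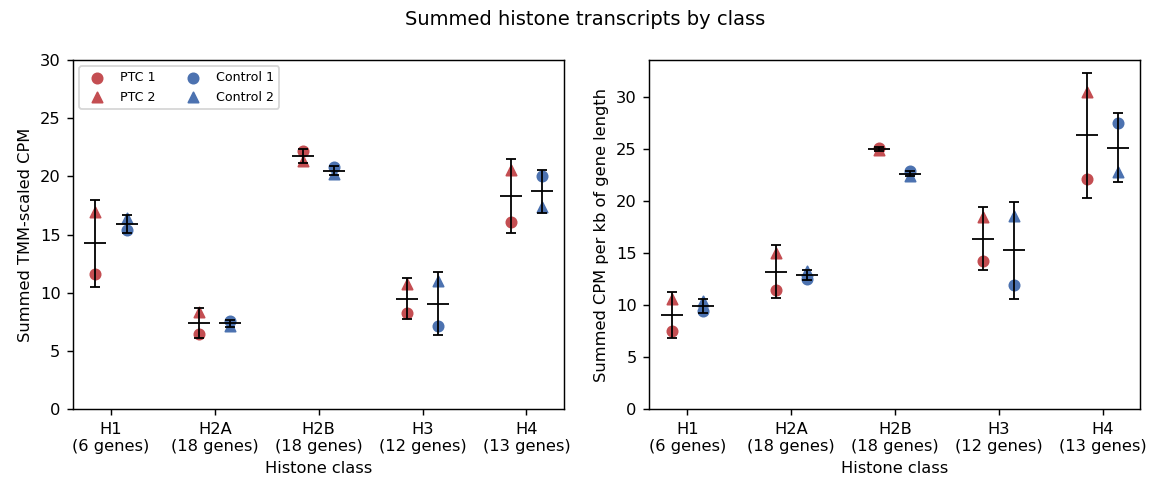
Summed level of each histone class in each library, PTC in red and Control in blue, as TMM-scaled CPM (left) and as CPM per kb of gene length (right); circles are replicate 1, triangles replicate 2, and bars the mean ± SD of 2 libraries. The groups overlap in H1, H2A, H3 and H4, and per length H4 (26.3 in PTC, 25.2 in Control) and H2B (25.1 in PTC, 22.7 in Control) are the highest classes.

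With TMM scaling, the PTC replicates differed more than the group means did in every class but H2B. The Control replicates did so in H2A, H3 and H4. In H1 they did not, with Control 2 at 1.07 times Control 1 and the PTC mean at 0.897 times the Control mean. PTC 2 was 1.45 times PTC 1 in H1, 1.28 times in H2A and in H4, and 1.3 times in H3, but 0.963 times in H2B. Control 2 was 1.54 times Control 1 in H3 and 0.868 times in H4. Of the 23 members tested below, 15 were higher in PTC 2 than in PTC 1. The ratios of these 4 classes therefore turn with the library left out: when each was left out in turn, the log2 ratio was -0.45 to 0.09 for H1, -0.18 to 0.18 for H2A, -0.20 (without Control 1) to 0.41 (without Control 2) for H3 and -0.22 to 0.14 for H4. For H2B it was 0.06 to 0.11.

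Of the 67 members, 23 passed the filter on low counts (39 to 929 counts over the 4 libraries) and were tested with edgeR among 13884 genes. They hold 90.5% of the family's counts. The 33 others with counts had at most 37 each, 430 in all. None of the 23 was called at an adjusted p under 0.05 by edgeR's quasi-likelihood test, beside 188 of all genes tested (1.35%), of which 82 were higher and 106 lower in PTC. Also, 0 of the 23 had an unadjusted p under 0.05, beside 1791 of all genes. DESeq2 gave no adjusted p for any member, and limma-voom called 0. The smallest p among the members was 0.108, with an adjusted p of 0.505. The PTC and Control libraries did not overlap for 8 of the 23, beside 43.6% of all genes tested. The median log2 fold change, PTC over Control, was 0.004 over the 23 members and -0.003 over all genes, with 12 members positive and 11 negative.

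At these counts the test could see only large changes in most members. Standard errors of the log2 fold changes were 0.16 to 0.66, and all 23 95% intervals included 0. The interval lay within a 2-fold change in either direction for 9 members, the 9 with at least 100 counts. For each of the others the interval reached past 2-fold in at least 1 direction, so that smaller differences were not detectable at this depth.

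**Figure D2:**
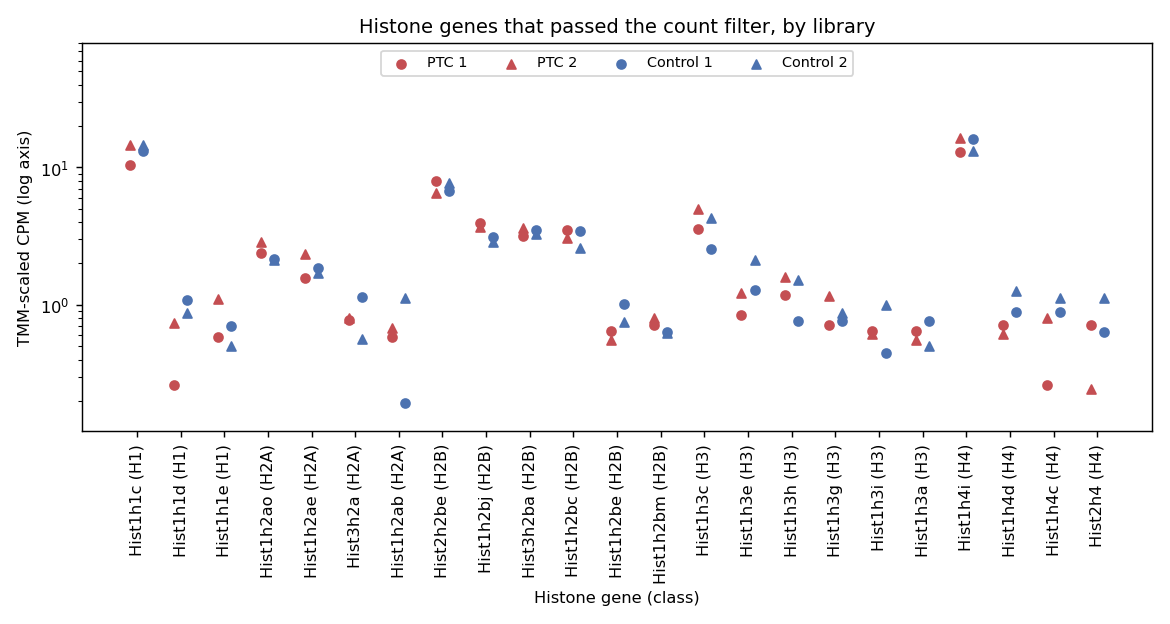
TMM-scaled CPM (log axis) of the 23 histone genes that passed the count filter, grouped by class along the horizontal axis, with PTC libraries in red at the left of each pair of columns and Control libraries in blue at the right. Hist1h4i and Hist1h1c stand above 10 CPM in all 4 libraries, and in most genes the red and blue points overlap.

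Among the core histones, Hist1h4i, the H4 gene at chr13:22040636-22041362 on the minus strand, had 13.1 and 16.4 CPM in PTC against 16.1 and 13.1 CPM in Control. The groups overlapped fully. Its log2 fold change of 0.01 ± 0.16 (SE; edgeR adjusted p = 0.983) has a 95% interval of 0.804-fold to 1.27-fold, and its sign turned with library totals (-0.03). The next H4 gene per length, Hist1h4k (chr13:21750194-21750505), was below the filter with 3 and 14 counts in PTC against 6 and 3 in Control. The 3 less abundant H4 genes that were tested had negative fold changes with wide intervals. Hist1h4c had 0.260 and 0.797 CPM in PTC against 0.893 and 1.13 CPM in Control, a log2 fold change of -0.91 ± 0.58 (SE; edgeR adjusted p = 0.531). Hist2h4 (chr3:96261682-96263311) had 0.715 and 0.245 CPM in PTC against 0.638 and 1.13 CPM in Control, with a log2 fold change of -0.89 (edgeR adjusted p = 0.574). Both rest on 49 counts or fewer, and 1 PTC library lies at 4 counts in each gene: Hist1h4c was at -0.34 without PTC 1 and -1.93 without PTC 2, and Hist2h4 at -1.82 without PTC 1 and -0.30 without PTC 2.

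In H3, Hist1h3c (chr13:23744973-23745602) was the most abundant gene, with 3.57 and 5.02 CPM in PTC against 2.55 and 4.27 CPM in Control. The groups overlapped, and the log2 fold change was 0.34 ± 0.28 (SE; edgeR adjusted p = 0.672). It was 0.02 without Control 1, 0.07 without PTC 2, 0.56 without PTC 1 and 0.76 without Control 2. Hist1h3h had 1.17 and 1.59 CPM in PTC against 0.766 and 1.51 CPM in Control, and Hist1h3g had 0.715 and 1.16 CPM in PTC against 0.766 and 0.879 CPM in Control. Neither passed the test, and both sets of values overlapped. Hist1h3e was lower in both PTC libraries, with 0.845 and 1.23 CPM against 1.28 and 2.13 CPM in Control, but its log2 fold change of -0.71 also missed the threshold (edgeR adjusted p = 0.520).

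In H2B, Hist1h2bj (chr13:22043214-22043676) was among the largest positive fold changes. It had 3.96 and 3.68 CPM in PTC against 3.13 and 2.89 CPM in Control. Both PTC libraries lay above both Control libraries, with a log2 fold change of 0.34 ± 0.26 (SE; edgeR adjusted p = 0.625) and an interval of 0.867-fold to 1.86-fold. Hist2h2be (chr3:96221119-96223738), in whose 2620-base model the searched stem-loop was not found, had 7.93 and 6.50 CPM in PTC against 6.70 and 7.66 CPM in Control. Hist3h2ba (chr11:58948920-58949533) had 3.18 and 3.61 CPM in PTC against 3.51 and 3.26 CPM in Control. In both genes the libraries overlapped and the log2 fold change was between 0.00 and 0.01, negative with library totals (-0.04 and -0.03).

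In H2A, Hist1h2ao (chr13:21810465-21810944) had 2.40 and 2.88 CPM in PTC against 2.17 and 2.13 CPM in Control. The PTC libraries were both higher, and the log2 fold change was 0.30 ± 0.31 (SE; edgeR adjusted p = 0.747), for a gene whose counts are uncertain because of near-identical copies. Hist1h2ae had 1.56 and 2.33 CPM in PTC against 1.85 and 1.69 CPM in Control, and the groups overlapped. Hist1h2ab ran from 3 to 18 counts within the Control libraries, 0.191 and 1.13 CPM, around 0.585 and 0.674 CPM in PTC.

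The linker histone genes held both ends of the range of fold changes. Hist1h1c (chr13:23738808-23740367) had 10.4 and 14.6 CPM in PTC against 13.3 and 14.6 CPM in Control, with a log2 fold change of -0.15 ± 0.17 (SE; edgeR adjusted p = 0.764). PTC 1 was the lowest of the 4 libraries and the other 3 were within 13.3 to 14.6 CPM. Hist1h1e (histone H1.4) had the largest positive value, 0.49 ± 0.55 (SE; edgeR adjusted p = 0.764), from 0.585 and 1.10 CPM in PTC against 0.702 and 0.502 CPM in Control, and it was -0.04 without PTC 2. Hist1h1d (histone H1.3) had the most negative one, -0.95 ± 0.58 (SE; edgeR adjusted p = 0.505), from 0.260 and 0.735 CPM in PTC against 1.08 and 0.879 CPM in Control. Without PTC 1, which had 4 counts, it was -0.41, and without PTC 2 it was -1.88. Hist1h1a, of which 5 and 5 counts were seen in PTC against 3 and 2 in Control, was below the filter. The 2 genes at either end thus belong to 1 class and each has fewer than 50 counts.

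**Figure D3:**
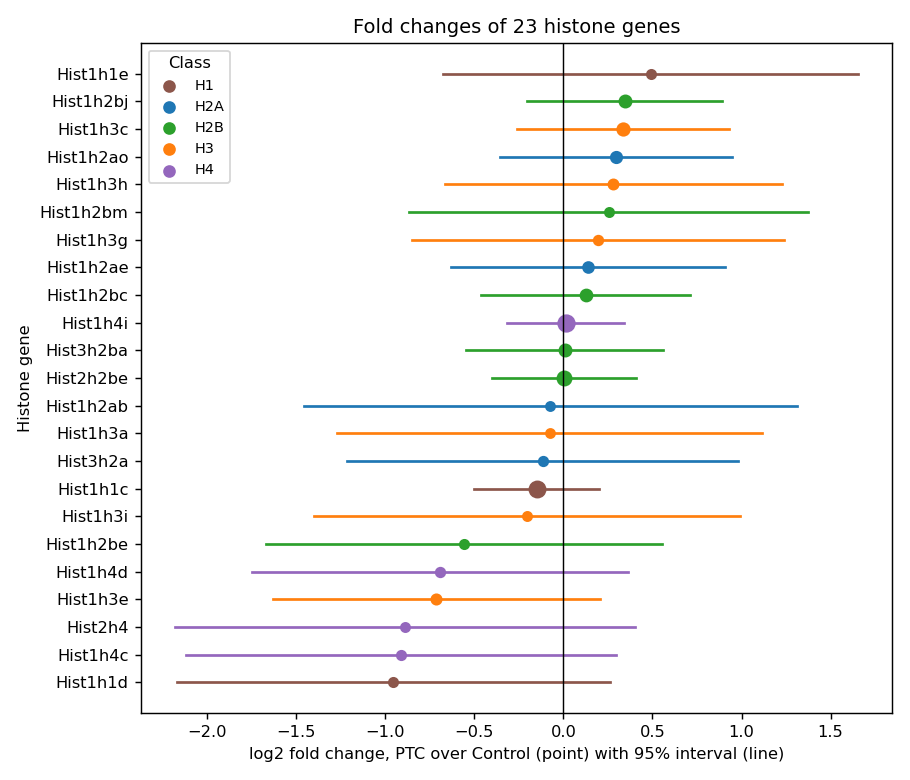
Log2 fold change, PTC over Control, of the 23 tested histone genes (points, larger with more counts, coloured by class) with the 95% interval from edgeR (lines). Every interval crosses 0, and those of Hist1h4i (-0.31 to 0.34), Hist1h1c (-0.50 to 0.20) and Hist2h2be (-0.40 to 0.41) are the narrowest.

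The 8 of 23 members without overlap between groups, beside 43.6% of all genes tested and so no more than in the background, were 3 that were higher in PTC (Hist1h2bj, Hist1h2ao and Hist1h2bm) and 5 that were lower (Hist1h3e, Hist1h4c, Hist1h4d, Hist1h2be and Hist1h1d). The 3 higher ones have models that end within 100 bases of the stem-loop, and the 5 lower ones have models that run more than 100 bases past it. Over the tested members of these kinds, the median log2 fold change was 0.28 for the 6 that end near the stem-loop and -0.35 for the 12 longer models. These medians include the same 8 genes and so add no support to the split. The longer models with at least 100 counts, Hist1h4i, Hist1h1c, Hist3h2ba and Hist1h2ae, were at 0.01, -0.15, 0.01 and 0.14. With as many counts, Hist1h3c, Hist1h2bj and Hist1h2ao, which end near the stem-loop, were at 0.34, 0.34 and 0.30. Summed levels did not separate the groups in the longer models, at 34.8 and 45.5 CPM in PTC against 44.7 and 42.6 CPM in Control. Those ending near the stem-loop summed to 14.0 and 16.2 CPM in PTC against 11.6 and 13.9 CPM in Control. This split was noticed after the values were seen and was not tested.

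Replacement histone genes gave far more counts than the replication-dependent genes in every library. Per kb, the 12 replacement genes summed to 12.9 and 10.6 times the 67 members in PTC and to 11.9 and 10.6 times in Control. These are ratios of counts and may differ from the ratios of mRNA in the cells. Most mRNAs of the members lack a poly(A) tail, and RNA selection is not stated. How reads that fit several places were counted is not given either. The part of both in these ratios was not tested. H2afz, which encodes H2A.Z, had 418 and 401 CPM in PTC against 423 and 396 CPM in Control, and its log2 fold change was 0.00 (-0.04 with library totals). H3f3a and H3f3b, which both encode H3.3, had log2 fold changes of 0.10 (adjusted p = 0.623) and 0.09 (adjusted p = 0.660) by edgeR. Over all 13884 genes tested by edgeR, 1.35% were called, 1791 had an unadjusted p under 0.05 and 6848 were positive. Of the 12 replacement genes, 10 were tested and 0 called by edgeR. Of these 10, 3 had an unadjusted p under 0.05, 9 were positive, and the median was 0.10. DESeq2 called 1 of them, H2afx. H2afx encodes H2A.X, the variant phosphorylated at DNA breaks, and its mRNA can carry the stem-loop. It had 368 and 393 CPM in PTC against 328 and 307 CPM in Control, with both PTC libraries higher. Its log2 fold change of 0.26 ± 0.08 (SE) had an adjusted p of 0.106 by edgeR and 0.019 by DESeq2, so the call depends on the method.

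The factors that make histone mRNA were mostly not called either. Of 23 genes of histone gene transcription and 3′ processing, 1 rose and 0 fell, beside 1.35% of all genes called. The median was 0.03, and 6 had an unadjusted p under 0.05, beside 1791 of 13884 genes. Those 6 include Lsm10 (-0.30), Zfp473 (-0.56) and Mblac1 (-0.65), none of which passed adjustment in edgeR. The gene that rose was Srrt, which encodes ARS2, a partner of the nuclear cap-binding complex needed for histone mRNA 3′ ends. It had 136 and 120 CPM in PTC against 97.2 and 102 CPM in Control, a log2 fold change of 0.36 ± 0.08 (SE; edgeR adjusted p = 0.0295). Without PTC 1 the log2 fold change was 0.27, with an edgeR adjusted p of 0.647. Slbp had 101 and 90.6 CPM in PTC against 84.2 and 85.6 CPM in Control, with both PTC libraries higher, and did not pass at 0.17 (edgeR adjusted p = 0.373). Npat, the coactivator of histone gene transcription, was at -0.01 (0.004 with upper-quartile scaling), and Lsm11, a U7 snRNP protein, at -0.18.

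Among 17 genes of histone mRNA decay, 1 rose and 0 fell, beside 1.35% of all genes called. The median was 0.09, and 6 had an unadjusted p under 0.05, beside 1791 of 13884 genes. Those 6 include Upf2 (-0.41) and Lsm6 (0.34), which did not pass adjustment in edgeR. Lsm5, a subunit of the Lsm rings that bind RNA 3′ ends in decay and splicing, had 19.4 and 22.3 CPM in PTC against 13.02 and 9.92 CPM in Control, a log2 fold change of 0.86 ± 0.15 (SE; edgeR adjusted p = 0.00661). No other Lsm subunit in the list was called at the threshold. Of 24 histone chaperones, 0 were called by edgeR, beside 1.35% of all genes. The median was 0.01, and 3 had an unadjusted p under 0.05, beside 1791 of 13884 genes.

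Genes of S phase, when these histones are made, were read beside them. Of 24 such genes 1 rose and 0 fell, beside 1.35% of all genes called. An unadjusted p under 0.05 was seen for 10 of the 24, beside 1791 of 13884 genes. The log2 fold change was positive for 22 and the median was 0.14, beside -0.003 over all genes. The 2 negative ones were Mki67 (-0.27) and Cdt1 (-0.23), with edgeR adjusted p of 0.106 and 0.204. Rrm1, the large subunit of ribonucleotide reductase, which makes deoxynucleotides, had 395 and 379 CPM in PTC against 278 and 297 CPM in Control, a log2 fold change of 0.43 ± 0.08 (SE; edgeR adjusted p = 0.00676). Without PTC 1 the log2 fold change was 0.40, about as large, with an edgeR adjusted p of 0.149. Slbp stands in this list as well as in that of processing.

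**Figure D4:**
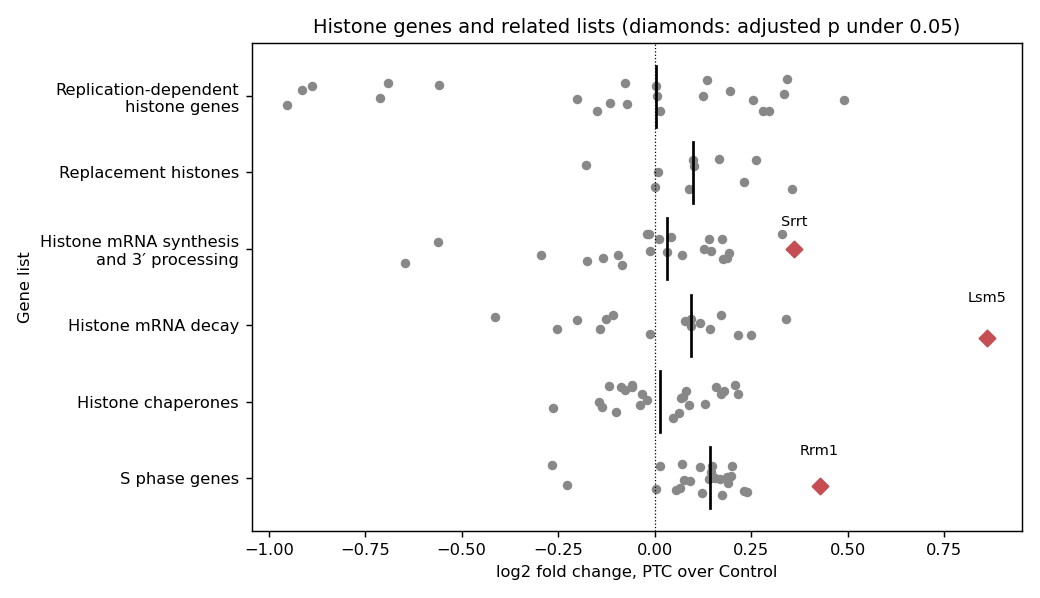
Log2 fold change, PTC over Control, of the tested genes of the replication-dependent histones and of 5 related lists; each point is a gene, black bars are list medians and red diamonds are genes with an edgeR adjusted p under 0.05. The histone genes spread from -0.95 to 0.49 around a median of 0.004 with no diamond, and the diamonds are Srrt, Lsm5 and Rrm1.

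Markers of other cells were read for the same libraries. All 12 T cell markers had counts, and they summed to 5553 and 5729 CPM in PTC against 5344 and 5094 CPM in Control. The 12 myeloid markers, none of them at 0, summed to 1522 and 1343 CPM in PTC against 1081 and 1087 CPM in Control, but moved both ways. Lyz2, which carries most of that sum, rose by 0.53 and S100a8 by 0.69 on the log2 scale, whereas Mpo fell by 1.70, Elane by 2.36 and Cd14 by 0.80 (edgeR adjusted p from 8.93e-06 to 0.0138 over these 5). The 11 B cell markers, none at 0, summed to 562 and 571 CPM in PTC against 533 and 528 CPM in Control, mostly from Ighm (0.03). Of them Igkc rose by 0.77 (edgeR adjusted p = 0.00325), and Cd22 was at -1.58 (edgeR adjusted p = 0.217). The 8 erythroid and platelet markers, with Alas2 at 0, summed to 214.3 and 214.5 CPM in PTC against 233.3 and 216.6 CPM in Control, mostly from Pf4, and Hbb-bt fell by 2.38 (edgeR adjusted p = 0.000273). Fewer cells of a type and less RNA per cell cannot be told apart in such bulk samples, and the part of these markers in the histone values was not tested.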

How the data were processed

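The deposited file is a table of whole-number read counts per gene, used as the authors deposited it. Per the submitters' processing notes, CASAVA 1.8, HISAT2 2.0.5 and featureCounts 1.5.0-p3 were used. Nothing is said there of strandedness, RNA selection or how multi-mapping reads were counted. All 67 members have the same coordinates in GENCODE M21 (GRCm38), which supplied the transcripts. Promoter sequence is from RefSeq (GRCm38.p6), matched by synonym, chromosome and strand. A further 2 columns of counts match no sample label and were left out of every step.

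Libraries held 15458818 to 16639911 counts. Genes were filtered with filterByExpr, scaled by TMM and tested in edgeR 4.0.16 (R 4.3.3) by its quasi-likelihood test on group alone, with Benjamini-Hochberg adjustment over 13884 genes and a threshold of 0.05. Intervals come from the same fit, and the code was tested on simulated counts. DESeq2 1.42.0, limma-voom 3.58.1, other scalings and filters, a replicate block and leaving out each library were alternatives. Words of 50 bases were compared with all annotated transcripts on both strands.

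Named members are the 3 highest per kb in each class, the 3 largest and 3 smallest log2 fold changes, called genes of the related lists and Slbp, Npat, Lsm11, H2afz, H2afx, H3f3a and H3f3b. Others are named as examples after their values were seen. The members and lists were chosen with earlier results of these data known.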

Additional observations from a re-analysis of the deposited data

How the results depend on the processing

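No alternative called a histone member. The 188 genes called became 432 with no filter on low counts and 237 with the replicate number as a block (0 members). Replicate deviations in PTC and Control correlated at -0.068 over 13884 genes. From 2 replicates a group, this value cannot show whether libraries with the same number shared a culture or animal. The genes called became 76 to 422 when a library was left out (76 without PTC 1, 422 without Control 1 and 337 without Control 2). With a filter of 1 CPM, 11 members were tested in place of 23, and their median log2 fold change was 0.13. The median of the members tested was -0.16 to 0.028 when each library was left out. Library totals shifted the median of all genes to -0.04. Replacement histone genes had 1 call with no filter and by DESeq2 and 0 to 2 without a library. S phase genes had 2 with library totals and with no filter, and 0 to 2 without a library. Without a library, processing genes had 0 to 1 calls, decay genes 1 to 2 and chaperones 0 to 1. The H2B sum was 0.044 with library totals and 0.14 per kb, an alternative chosen after seeing the data. Leaving out each library gave -0.45 to 0.090 for H1, -0.18 to 0.18 for H2A, -0.20 to 0.41 for H3 and -0.15 to 0.12 for all classes. Signs turned for Hist1h2ab (limma-voom 0.37, replicate block 0.044), Hist3h2ba (library totals -0.034), Hist2h2be (library totals -0.037, limma-voom -0.0021), Hist1h4i (library totals -0.027), Npat (upper-quartile scaling 0.0039) and H2afz (library totals -0.039). Leaving out each library gave -0.42 to 0.075 for Hist1h1c, -0.039 to 0.87 for Hist1h1e, -0.18 to 0.39 for Hist1h2ae, -0.83 to 1.68 for Hist1h2ab, -0.087 to 0.096 for Hist3h2ba, -0.14 to 0.14 for Hist2h2be, -0.11 to 0.85 for Hist1h3h, -0.20 to 0.50 for Hist1h3g, -0.16 to 0.18 for Hist1h4i, -0.095 to 0.072 for Npat, -0.38 to 0.080 for Lsm11 and -0.041 to 0.059 for H2afz. The causes were not tested. The 95% interval stayed within 2-fold for the 9 members with at least 100 counts alone.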
